A study of Xenopus laevis with 37 samples.

Results

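The expression of 4 early endoderm genes, sox17a.S, darmin.L, a2m.S and a1cf.L, was followed in gut tissue of Xenopus laevis neurulae by bulk RNA-seq. They are 4 of the 40271 rows of a gene table in TPM, a unit of transcript abundance that scales each library to a common total and each gene by its length. The rows were taken by name, and their values in all groups of the study were known when they were picked. Their levels and differences are therefore given as a description, without a test. The tests that follow concern other rows, which are the second gene copies (homeologs) of the same symbols and fixed lists of pathway genes. The Xenopus laevis genome carries 2 subgenomes, and the suffix .L or .S names the one on which a copy lies.

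Frog endoderm is specified in the blastula and gastrula by maternal VegT and by Nodal signals, which act through the Mix, GATA and Sox17 transcription factors. Sox17 is an HMG-box transcription factor needed for endoderm formation in the frog. Darmin is a secreted protein related to carnosinase-like peptidases, and in Xenopus it is made by endoderm. The gene a2m encodes alpha-2-macroglobulin, a large proteinase inhibitor that the mammalian liver secretes into plasma. RefSeq gives endodermin as another name for a2m.S. The gene a1cf encodes an RNA-binding protein that in mammals assists the editing of apolipoprotein B mRNA in gut and liver. In the neurula, BMP and Wnt signals pattern this endoderm along the body axis into foregut, the source of liver, pancreas and lung, and hindgut, the source of intestine.

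The study asked how BMP and Wnt signals act on foregut and hindgut progenitors, and its 37 libraries fall into 15 groups, all taken at stage NF20. In an inhibitor experiment, embryos labelled wild type were cultured from stage NF12 in DMSO vehicle, in 40 µM DMH1, which blocks BMP receptors, or with the GSK3 inhibitor BIO at 60 µM, an activator of Wnt signalling. Foregut (FG) or hindgut (HG) explants were then cut, giving FG_DMSO, FG_DMH1, FG_BIO, HG_DMSO, HG_DMH1 and HG_BIO with 3 libraries each. A group of 3 dorsal explants, Dorsal, was cut from embryos for which no agent is labelled. In a heat shock experiment, embryos carrying the hsp:Dkk1GFP transgene were heated for 30 min at 37 °C and then kept at 13 °C to make Dkk1, a secreted Wnt antagonist (FG_HSdkk1, HG_HSdkk1), or were left unheated (FG_noHS, HG_noHS), with 2 libraries per group. In a germ layer experiment, foregut and hindgut explants of embryos labelled wild type were separated into endoderm (FG_endo, HG_endo) and mesoderm layers (FG_meso, HG_meso), again with 2 libraries per group. The transgene is driven by a heat shock promoter, so Dkk1 was not confined to 1 tissue, and heat and Dkk1 cannot be told apart because no heated embryo without the transgene was analysed here. The genotype field reads wild type for the heat shock samples too, and HG_meso samples carry endoderm as their tissue. Those samples were grouped by their titles. The 2 columns of each hindgut heat shock group could be tied to their group but not to a replicate number. The submitters describe the replicates as independent, but how many embryos went into a library is not given in the sources used here.

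Library sums ran from 999208 to 999778 TPM, and the number of rows at 1 TPM or more ran from 15182 to 22769. FG_endo replicate 1 had the lowest of these row counts and stood apart from FG_endo replicate 2, which had 18922. Values without FG_endo replicate 1 are therefore given beside the differences and tests that use FG_endo. A list of 14 endoderm marker rows (sox17b.1, foxa1, foxa2, foxa4, vegt and others, without the 4 genes described here) summed to 2534.1 and 2870.5 TPM in HG_endo and to 731.54 and 1730.7 TPM in FG_endo. The same sum was 75.5 to 90.38 TPM in the mesoderm layers, 105.89 to 134.34 TPM in Dorsal and 270.99 to 672.68 TPM in the inhibitor explants. The labelled layers thus differed in the endoderm markers. A list of 29 mesoderm marker rows separated the foregut layers less, at 43.26 and 140.45 TPM in FG_endo and 150.78 to 178.26 TPM in FG_meso. In hindgut it summed to 39.37 to 67.84 TPM in HG_endo and 712.92 to 1013.6 TPM in HG_meso. A list of 18 neural plate rows was higher in FG_endo (255.32 to 331.65 TPM) than in FG_meso (177.79 to 215.89 TPM). In hindgut it was lower in endoderm (34.49 to 67.08 TPM) than in mesoderm (101.61 to 168.36 TPM). The mesoderm layers also carried skin: a list of 16 epidermis and cement gland rows summed to 22898 to 38397 TPM there and to 1411.2 to 1524 TPM in the endoderm layers. TPM keeps no read count, so the depth behind a value is unknown. In bulk tissue, fewer cells of a type and less RNA per cell cannot be told apart.

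The members differed widely in level. In HG_endo darmin.L held place 22 and a2m.S place 31 among all 40271 rows ordered by mean TPM, while sox17a.S held place 163 and a1cf.L place 10045. HG_endo had the highest group mean of sox17a.S, 934 ± 122 TPM (SD, n = 2), of darmin.L, 3896 ± 172 TPM, and of a2m.S, 3017 ± 157 TPM. The highest mean of a1cf.L was in HG_DMH1, at 7.12 ± 0.55 TPM (SD, n = 3), followed by HG_endo at 6.94 ± 3.44 TPM. For sox17a.S, darmin.L and a2m.S the mesoderm layers held the lowest places, below Dorsal, and a1cf.L was listed at 0 TPM in all 4 mesoderm layer libraries. Of the 14 pairs of groups next to each other in the order of means, the libraries did not overlap in 5 pairs for sox17a.S, 4 for darmin.L, 3 for a2m.S and 1 for a1cf.L. How often neighbours are separated in this way over all rows was not counted, so these numbers only describe the members.

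**Figure D1:**
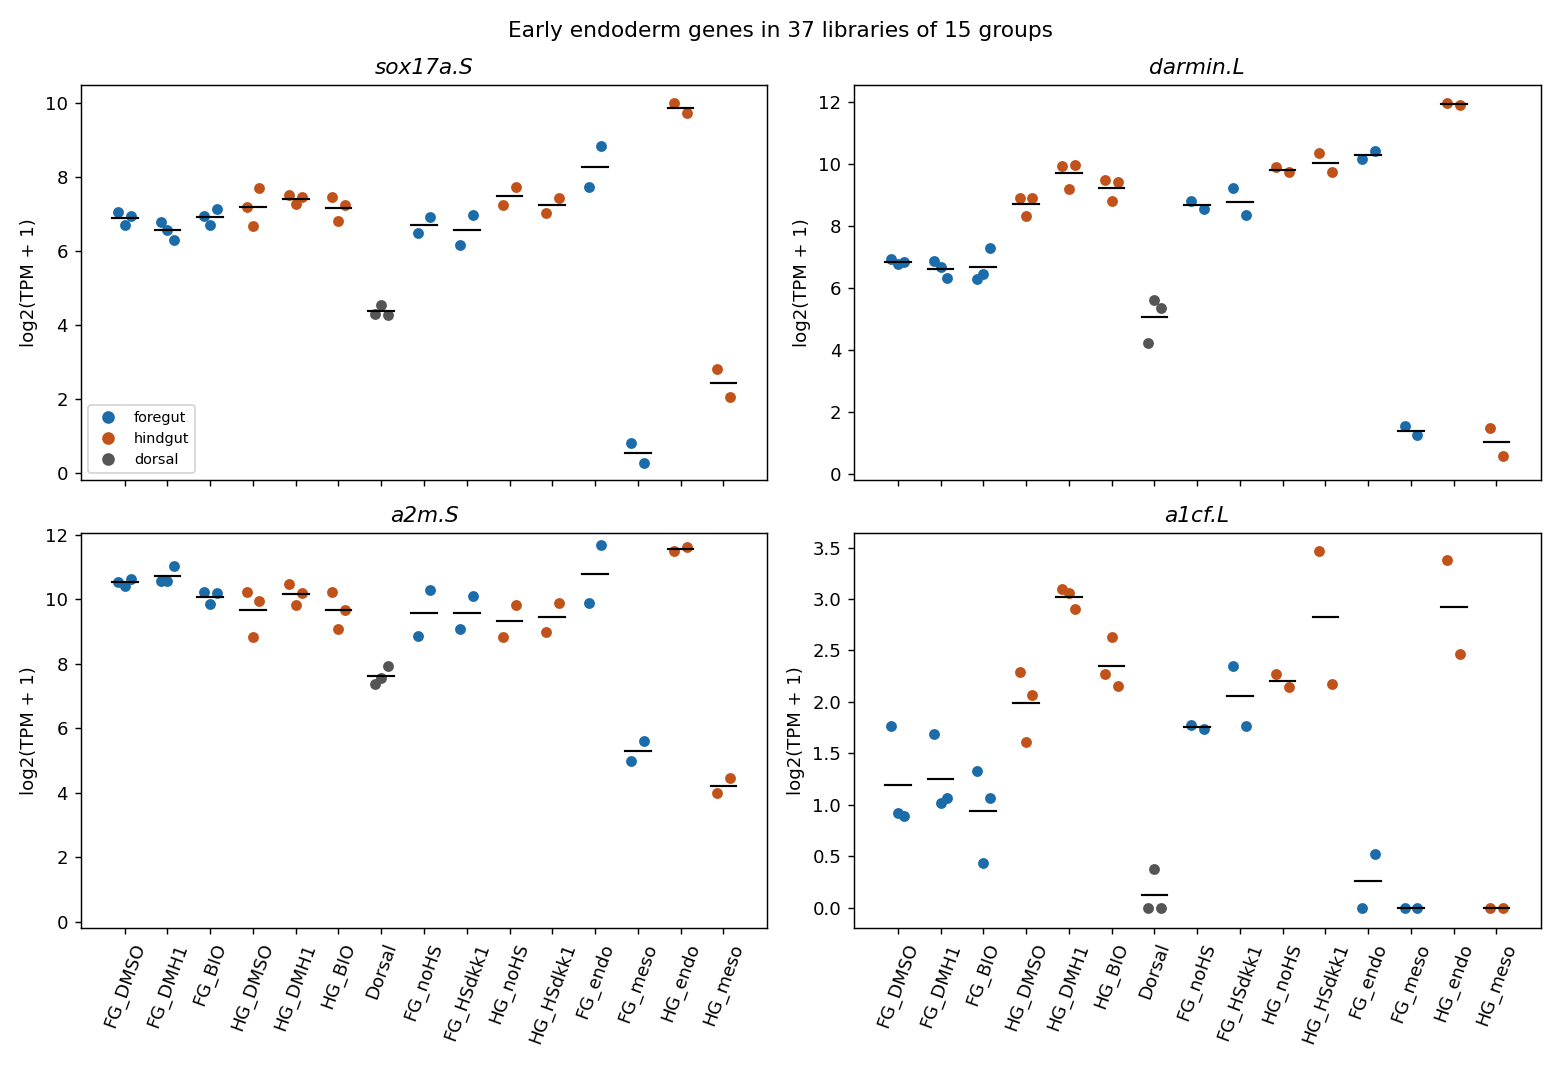
Level of sox17a.S, darmin.L, a2m.S and a1cf.L as log2(TPM + 1) (vertical axis, a different range in each panel) in each of the 37 libraries (points), by group (horizontal axis), with the group mean of log2 values as a line. Points of sox17a.S and darmin.L are highest in HG_endo, the highest point of a2m.S is in FG_endo, and all 3 rows are lowest in the mesoderm layers; a1cf.L, on a much lower scale, stays at 0 in the mesoderm layers and near 0 in FG_endo and Dorsal.

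Along these orders, sox17a.S stepped from HG_endo to FG_endo, from FG_endo to the explants, and from the explants to Dorsal, HG_meso and FG_meso, and each of these steps separated all libraries. The step from FG_endo to the explants was narrow, with 210.14 TPM in FG_endo replicate 1 and 209.59 TPM in the second column of HG_noHS. Between HG_noHS, with a mean of 181 TPM, and FG_DMH1, with 93.9 TPM, no 2 neighbouring groups of sox17a.S were separated. For darmin.L the explants fell into an upper set from HG_HSdkk1 (1066 TPM) to FG_noHS (408 TPM) and a lower set of FG_DMSO, FG_BIO and FG_DMH1 (98.9 to 114 TPM), with no library of FG_noHS as low as any of FG_DMSO. These foregut groups belong to different experiments, so the experiment and the treatment cannot be told apart. For a2m.S no neighbouring groups were separated from HG_endo (3017 TPM) down to HG_noHS (685 TPM), and the steps to Dorsal, FG_meso and HG_meso separated all libraries. For a1cf.L the only separated neighbours were FG_noHS (2.38 TPM) and FG_DMH1 (1.44 TPM).

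In the separated germ layers, sox17a.S, darmin.L and a2m.S were endodermal in both regions. In TPM, sox17a.S was 210.14 and 452.73 in FG_endo and 1020.41 and 848.57 in HG_endo, against 0.75 and 0.2 in FG_meso and 6.03 and 3.13 in HG_meso. The endoderm libraries lay above every mesoderm library, and the hindgut libraries lay above the foregut libraries within each layer. For darmin.L, 1136.94 and 1357.63 TPM were listed in FG_endo and 4017.52 and 3773.8 TPM in HG_endo, against 1.93 and 1.38 TPM in FG_meso and 1.79 and 0.52 TPM in HG_meso. Here too the layers were far apart, and hindgut lay above foregut in the endoderm, whereas the mesoderm libraries of the 2 regions overlapped. For a2m.S the values were 943.04 and 3266.75 TPM in FG_endo, 2905.54 and 3128.06 TPM in HG_endo, 30.88 and 47.61 TPM in FG_meso and 14.8 and 20.9 TPM in HG_meso. Endoderm again lay above mesoderm, but the endoderm of the 2 regions overlapped, and in the mesoderm layers foregut lay above hindgut. The pattern of a1cf.L differed, with 9.37 and 4.51 TPM in HG_endo but 0 and 0.44 TPM in FG_endo, so that only the hindgut endoderm held more than 1 TPM.

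As log2 differences of log2(TPM + 1), FG_meso minus FG_endo was -7.74 for sox17a.S, -8.88 for darmin.L and -5.48 for a2m.S, and without FG_endo replicate 1 these were -8.29, -9.01 and -6.38. HG_meso minus HG_endo was -7.43 for sox17a.S, -10.89 for darmin.L and -7.34 for a2m.S. a1cf.L was listed at 0 in both mesoderm groups, so the size of its difference depends on the pseudocount. Groups that do not overlap are common in these comparisons: in 17.1% of the 28863 rows that passed a filter of 1 TPM in at least 2 libraries all FG_meso libraries lay below all FG_endo libraries, and in 21.5% all HG_meso libraries lay below all HG_endo libraries. The skin markers given above moved with every layer comparison in the opposite direction. Their part in the member values was not tested.

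HG_endo minus FG_endo was 1.59 (SE 0.34) for sox17a.S, 1.65 (SE 0.39) for darmin.L, 0.78 (SE 0.51) for a2m.S and 2.66 (SE 0.39) for a1cf.L on the log2 scale. Without FG_endo replicate 1 the values were 1.04, 1.52, -0.12 and 2.39, so the sign for a2m.S rested on that library. The summed endoderm markers were also higher in HG_endo than in FG_endo. For sox17a.S, darmin.L and a1cf.L all HG_endo libraries lay above all FG_endo libraries, which held for 20.1% of the rows tested. Between the mesoderm layers, HG_meso minus FG_meso was 1.89 for sox17a.S and -1.08 for a2m.S with no overlap (24.9% of tested rows were higher and 13.7% lower without overlap), and -0.36 for darmin.L with overlap. These mesoderm values rest on at most 6.03 TPM for sox17a.S.

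The second copies differed in abundance. sox17a.L was as abundant as sox17a.S, with 1080 ± 23.7 TPM in HG_endo and 434 ± 139 TPM in FG_endo (SD, n = 2). In the explants, the dorsal tissue and the endoderm layers sox17a.S made up 38.47 to 61.56% of the summed sox17a TPM of a library. By contrast, darmin.S was at most 0.86 ± 0.47 TPM outside HG_endo, where its libraries held 13.12 and 0.29 TPM, and a2m.L had a highest group mean of 0.227 TPM against 1468 TPM for a2m.S in the same FG_DMSO libraries. So nearly all darmin and a2m transcript was assigned to 1 copy. No a1cf.S row was analysed here. The copies may share reads, which the deposited counting may have split, so the .L and .S values of sox17a are not independent measurements.

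**Figure D2:**
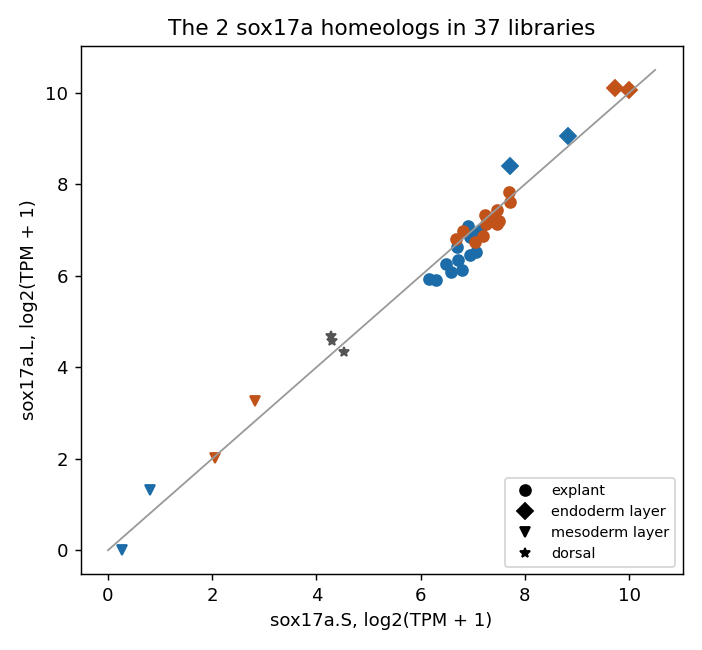
Level of sox17a.L (vertical axis) against sox17a.S (horizontal axis), both as log2(TPM + 1), in 37 libraries. Symbols mark explants, endoderm layers, mesoderm layers and dorsal tissue, colours mark foregut (blue), hindgut (orange) and dorsal (grey), and the line marks equal values, along which the endoderm layers lie at the top and the mesoderm layers at the bottom.

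For sox17a.L the differences were tested with limma, a linear model over all 28863 rows, with Benjamini-Hochberg adjustment over these rows and a threshold of 0.05. It was lower in mesoderm than in endoderm, by a log2 difference of -8.07 in foregut (SE 0.40, adjusted p = 7.20e-15; -8.40, adjusted p = 9.18e-13, without FG_endo replicate 1) and -7.44 in hindgut (SE 0.40, adjusted p = 4.76e-14). HG_endo exceeded FG_endo by 1.35 (SE 0.40, adjusted p = 0.0184). That call did not hold without FG_endo replicate 1 (1.02, adjusted p = 0.201), without HG_endo replicate 1 (adjusted p = 0.0720) or without HG_endo replicate 2 (adjusted p = 0.0748), with a pseudocount of 0.1 (adjusted p = 0.161) or with only the groups compared (adjusted p = 0.368). HG_meso exceeded FG_meso by 1.98 (SE 0.40, adjusted p = 0.00389), at 5.84 against 0.75 TPM, and this was lost without FG_meso replicate 2 or without HG_meso replicate 1 (adjusted p = 0.198 in both), with a pseudocount of 5 (adjusted p = 0.253) and with only the groups compared (adjusted p = 0.467). The layer effect of sox17a.L was not shown to differ between the regions (adjusted p = 0.638, and 0.419 without FG_endo replicate 1, limma interaction). For darmin.S, limma called HG_endo over FG_endo (1.82, adjusted p = 0.0166) and HG_meso below HG_endo (-2.09, adjusted p = 0.00289). Both rested on HG_endo replicate 1, without which the log2 differences were 0.09 and -0.37. The first difference was 2.09 without FG_endo replicate 1 and 1.54 without FG_endo replicate 2. With only the groups compared, the limma adjusted p-values of the 2 calls were 0.709 and 0.450.

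RefSeq, in its Xenopus_laevis_v10.1 annotation, places sox17b.1 next to sox17a on both subgenomes. This close relative, also an endodermal HMG-box factor, had the same order of layers. The level of sox17b.1.S was 710.24 and 755.32 TPM in HG_endo and between 145.85 and 319.4 TPM in FG_endo, against 5.63 to 7.24 TPM in HG_meso, and it was listed at 0 TPM in FG_meso. Of the summed sox17a and sox17b.1 TPM, sox17a made up 74.58 to 82.81% in FG_DMSO and 65.87 to 68.96% in HG_DMSO, and these libraries did not overlap. How often such shares separate for other genes was not counted. In unheated transgenic explants it was 67.9 to 74.49% in FG_noHS, overlapping with HG_DMSO, and 62.61 to 65.74% in HG_noHS. Heated foregut (68.69 to 72.43%) and heated hindgut (64.28 to 72.21%) overlapped. The share was 65.77 to 67.69% in FG_endo and 60.29 to 61.76% in HG_endo. Next to darmin.L, cndp1.L, a carnosine dipeptidase gene, was at 2.74 to 7.36 TPM in HG_endo, far below darmin.L itself. The neighbour of a2m.S, phc1.S, which encodes a Polycomb protein, was at 15.32 to 21.94 TPM there.

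The other genes of the pathway were described from fixed lists. Of 38 rows of early endoderm transcription factors in the table, 33 passed the filter. In FG_meso minus FG_endo, 19 of the 33 were lower and 2 higher at an adjusted p under 0.05 with limma, with a median log2 difference of -1.29 beside 0.08 over all rows tested (8.5% of tested rows were lower and 18% higher). The median was -2.20 beside -0.01 without FG_endo replicate 1. In HG_meso minus HG_endo, 24 were lower and 2 higher, with a median of -2.45 beside 0.11 (11.6% of rows lower, 21.6% higher). The factors that fell with the layer, as the members were lower, were led by foxa2.S, a forkhead pioneer factor, at 0.64 against 114 TPM in foregut (-6.10, adjusted p = 8.76e-15) and 0.76 against 132.5 TPM in hindgut (-6.22, adjusted p = 7.51e-15). sox17b.1.S fell too, by 6.63 on the log2 scale in hindgut (adjusted p = 2.16e-12), and was listed at 0 TPM in FG_meso (adjusted p = 7.59e-14). Those higher in both mesoderm layers were sox7.L and sox7.S, copies of another member of the Sox17 subfamily that is known from blood vessels. Mean sox7.L was 27.2 TPM in FG_meso against 0.155 TPM in FG_endo (4.62, adjusted p = 1.55e-12) and 22.5 TPM in HG_meso, with 0 TPM listed in HG_endo (adjusted p = 2.45e-12). Without FG_endo replicate 1, 21 of the 33 factors were lower and 2 higher in foregut, with adjusted p-values of 4.45e-13 for foxa2.S, 2.08e-12 for sox17b.1.S and 4.40e-10 for sox7.L. Rows of the Sox17 subfamily thus lay on opposite sides of the layer comparison.

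In HG_endo minus FG_endo, 11 of the 33 factors were higher and 0 lower, with a median of 0.68 beside 0.05 over all rows (10.7% of tested rows higher, 7.86% lower). The median was 0.22 beside -0.01 without FG_endo replicate 1. These 11 included sox17b.1.L (1.88), vegt.S (1.81), which encodes the T-box factor VegT, and gata6.S, a GATA factor of endoderm and heart (1.14). Without FG_endo replicate 1 the count was 2, without HG_endo replicate 1 it was 4, and with only the groups compared it was 0. Without FG_endo replicate 1, vegt.S was still called (2.22, adjusted p = 0.00199), while sox17b.1.L (1.51, adjusted p = 0.0629), sox17b.1.S (adjusted p = 0.136) and gata6.S (0.39, adjusted p = 0.529) were not. In HG_meso minus FG_meso, sox17b.1.S (2.89), sox17b.1.L (2.64) and vegt.S (1.47) were the 3 called, all higher, with a median of 0.10 beside 0.05 (1.44% of rows higher, 0.915% lower). With only the groups compared, 0 were called here too.

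Whole hindgut and foregut explants differed in the members gene by gene. In TPM, darmin.L was 120.67, 108.67 and 112.84 in FG_DMSO and 475.48, 318.39 and 475.45 in HG_DMSO, with all hindgut libraries above all foregut libraries. The ratio of means was 3.71 and the log2 difference 1.86 (SE 0.32). For a2m.S the order was the other way round, with 1493.5, 1343.87 and 1567.1 TPM in FG_DMSO above 1200.05, 457.4 and 990.32 TPM in HG_DMSO, again without overlap. Its log2 difference was -0.84 (SE 0.42), and without HG_DMSO replicate 2, the lowest library, it was -0.43. For sox17a.S, 131.79, 103.72 and 121.75 TPM in FG_DMSO overlapped with 145.96, 101.43 and 205.57 TPM in HG_DMSO, at 0.29 (SE 0.27). The low row a1cf.L, at 2.39, 0.89 and 0.85 TPM in FG_DMSO and 3.9, 2.06 and 3.2 TPM in HG_DMSO, was higher in hindgut in 3 of 3 same-numbered pairs, although the groups overlapped. Of all rows tested, 6.35% were higher and 17.5% lower in HG_DMSO without overlap of the libraries. How many of all rows have 3 of 3 pairs in 1 direction was not counted, so pair counts here and below only describe the members. Blood and endothelium markers were also lower in HG_DMSO than in FG_DMSO, and summed endoderm markers overlapped.

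The unheated transgenic explants gave a second, separate set of libraries for the same regional comparison. There darmin.L was 443.43 and 372.45 TPM in FG_noHS and 959.35 and 842.91 TPM in HG_noHS, with a ratio of means of 2.21 and a log2 difference of 1.14 (SE 0.39). sox17a.S was 88.81 and 118.69 TPM in foregut and 151.56 and 209.59 TPM in hindgut, at 0.79 (SE 0.34), and a1cf.L was 2.42 and 2.34 TPM against 3.82 and 3.42 TPM, at 0.45 (SE 0.39). All hindgut libraries of these 3 rows lay above all foregut libraries, as in 9.66% of the rows tested. For a2m.S, 463.49 and 1254.09 TPM in foregut and 458.38 and 912.46 TPM in hindgut overlapped, and leaving out 1 library turned the sign of its difference (-0.24, and 0.48 without FG_noHS replicate 2). The foregut level of darmin.L was thus between 372.45 and 443.43 TPM in this experiment and between 108.67 and 120.67 TPM in FG_DMSO.

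Neither whole-explant comparison called sox17a.L (limma with Benjamini-Hochberg adjustment, 0.59, adjusted p = 0.382 in vehicle, and 0.69, adjusted p = 0.900 in unheated explants). Of the 33 early endoderm factors, 2 were higher and 4 lower in HG_DMSO than in FG_DMSO, with a median of 0.08 beside -0.12 over all rows (2.38% of tested rows were higher and 5.08% lower). Higher were vegt.S (1.46) and sox17b.1.L (1.40). The lower rows were copies of gata4 and foxa2, led by gata4.L, a GATA factor of gut and heart (-3.06), and foxa2.L (-1.40). The replicate block takes out the numbers shared by libraries of the inhibitor, germ layer and foregut heat shock experiments. With it, 10 of the 33 were called. In the main fit without HG_DMSO replicate 2 there were 3. In unheated explants 1 factor, gata4.L (-3.17), was lower and 0 were higher, with 6 at an unadjusted p under 0.05 (0.724% of tested rows were lower and 0.662% higher with limma). This call was lost when any 1 of the 4 libraries was left out.

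BMP receptor inhibition went with a higher level of darmin.L and a1cf.L in hindgut but not in foregut explants. In HG_DMH1, darmin.L was 965.16, 588.59 and 993.22 TPM, each library above every HG_DMSO library, with a ratio of means of 2.01 and a log2 difference of 0.99 (SE 0.32). The same-numbered ratios were 2.03, 1.85 and 2.09. In FG_DMH1, at 116.23, 101.09 and 79.35 TPM, it overlapped with FG_DMSO and was lower in 3 of 3 same-numbered pairs, at -0.22 (SE 0.32; 6.68% of tested rows were higher and 7.46% lower in FG_DMH1 without overlap). For a1cf.L, HG_DMH1 held 7.53, 7.34 and 6.5 TPM, above all HG_DMSO libraries, at 1.03 (SE 0.32), while FG_DMH1 held 2.22, 1.02 and 1.09 TPM, at 0.07 (SE 0.32) beside FG_DMSO. All HG_DMH1 libraries lay above all HG_DMSO libraries in 9.8% of the rows tested, and below them in 3.71%. The difference between the regions was 1.21 (SE 0.45) for darmin.L and 0.96 (SE 0.45) for a1cf.L, and it was not tested because the rows were picked with these values known.

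In the same libraries a2m.S was higher with DMH1 than with vehicle in 3 of 3 same-numbered pairs in each region (ratios 1.01, 1.13 and 1.33 in foregut, and 1.19, 1.97 and 1.17 in hindgut). It was 1514.76, 1513.66 and 2081.49 TPM in FG_DMH1 and 1431.85, 899.39 and 1162.51 TPM in HG_DMH1, and both groups overlapped with vehicle (0.20 and 0.49, SE 0.42 each). Levels of sox17a.S were 109.98, 94.3 and 77.43 TPM in FG_DMH1, lower than vehicle in 3 of 3 pairs with overlap (-0.35, SE 0.27), and 180.57, 153.7 and 175.58 TPM in HG_DMH1 (0.22, SE 0.27). sox17a.L, which can be tested, was lower in all FG_DMH1 libraries than in all FG_DMSO libraries, but did not pass (-0.54, adjusted p = 0.884, limma with Benjamini-Hochberg adjustment). The summed endoderm markers were 270.99 to 377.55 TPM in FG_DMH1 and 380.64 to 471.01 TPM in FG_DMSO, without overlap. A list of 20 blood and endothelium rows was lower with DMH1 in both regions, also without overlap. It summed to 470.77 to 564.84 TPM in FG_DMH1 against 957.94 to 1308.1 TPM in FG_DMSO, and to 59.71 to 69.91 TPM in HG_DMH1 against 127.34 to 236.62 TPM in HG_DMSO. The summed mesoderm markers (29 rows) overlapped in hindgut, at 666.78 to 981.87 TPM in HG_DMH1 and 209.07 to 717.22 TPM in HG_DMSO. Their part in the member values was not tested.

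**Figure D3:**
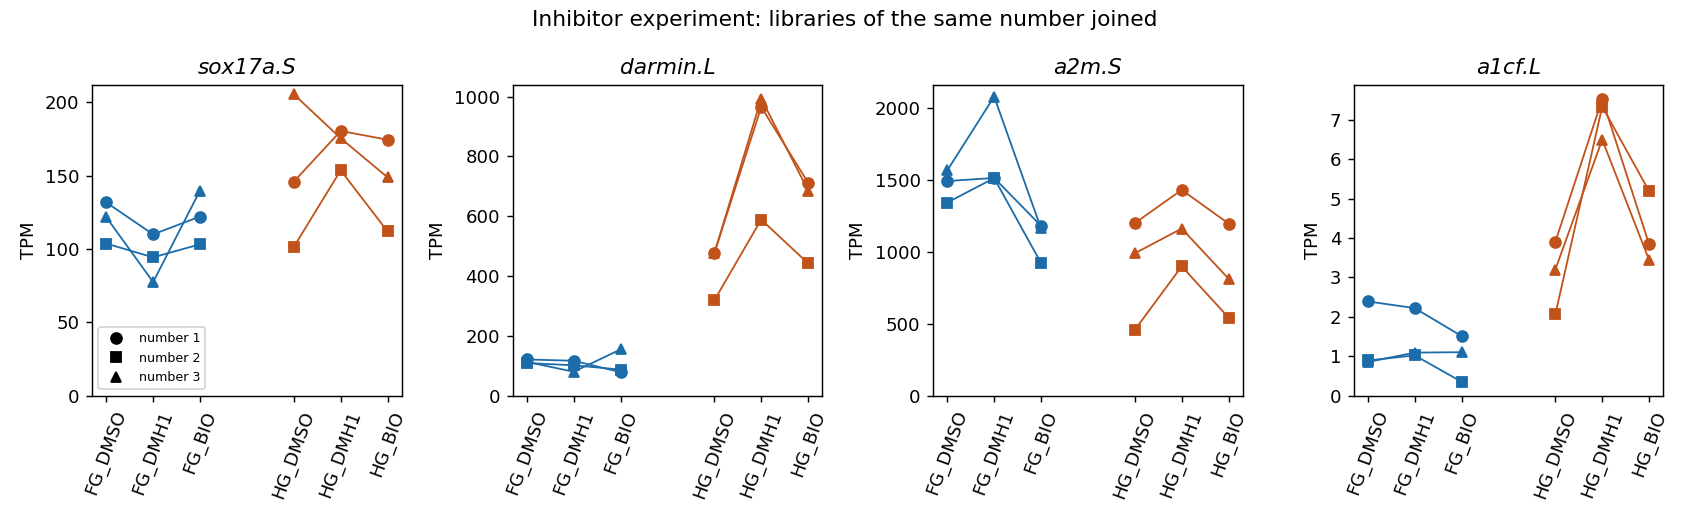
TPM (vertical axis, linear from 0) of sox17a.S, darmin.L, a2m.S and a1cf.L in the inhibitor experiment, in foregut (blue) and hindgut (orange) explants under DMSO, DMH1 and BIO. Each symbol is 1 library and lines join libraries of the same number: the hindgut lines of darmin.L and a1cf.L go up from DMSO to DMH1 in 3 of 3 pairs, and the foregut lines of a2m.S go down from DMSO to BIO in 3 of 3 pairs.

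Of the 33 early endoderm factors 0 were called by limma under DMH1 in either region, with 5 at an unadjusted p under 0.05 in foregut and 2 in hindgut. In hindgut 1 was called with the replicate block and 1 without HG_DMSO replicate 1. Their median log2 difference was -0.45 in foregut beside 0.00 over all rows (0.229% of tested rows were higher and 0.509% lower), and 0.12 in hindgut beside 0.07 (0.939% higher, 0.225% lower). Under DMH1, 1 row was called in each region among all 135 tested rows of the lists. In hindgut this was apobec2.L, of the APOBEC family, 16.5 against 4.24 TPM (1.77, adjusted p = 0.0179), and in foregut the caudal homeobox row cdx2.L, 1.90 against 8.43 TPM (-1.56, adjusted p = 0.00523).

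GSK3 inhibition with BIO went with a lower a2m.S in foregut. The FG_BIO libraries held 1181.43, 922.17 and 1163.31 TPM, each below every FG_DMSO library, as in 17.9% of the rows tested (8.86% lay above), and lower in 3 of 3 same-numbered pairs (-0.44, SE 0.42; ratios 0.791, 0.686 and 0.742). In HG_BIO, with 1197.09, 542.38 and 812.82 TPM, a2m.S overlapped with vehicle (-0.01, SE 0.42; 6.96% of tested rows were higher and 5.3% lower in HG_BIO without overlap). FG_BIO thus lay between FG_DMSO and HG_DMSO in its a2m.S mean, 1089 ± 145 TPM, beside 1468 ± 114 and 883 ± 383 TPM (SD, n = 3). darmin.L, the row that separated hindgut from foregut most clearly, was 78.06, 86.75 and 154.14 TPM in FG_BIO and remained far below every HG_DMSO library. In HG_BIO it was 711.96, 442.02 and 685.82 TPM, overlapping with vehicle but higher in 3 of 3 same-numbered pairs (0.53, SE 0.32). Markers of other tissues differed in the same foregut libraries: blood and endothelium rows summed to 58.43 to 106.44 TPM in FG_BIO against 957.94 to 1308.1 TPM in FG_DMSO, and epidermis and cement gland rows to 9595.4 to 13246 TPM against 17233 to 27384 TPM. In HG_BIO these sums were 69.18 to 126.6 TPM and 13687 to 17246 TPM, against 127.34 to 236.62 TPM and 17394 to 20916 TPM in HG_DMSO, all without overlap. Their part in the member values was not tested.

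Both sox17a copies overlapped between BIO and vehicle explants. Under BIO, sox17a.S was 122.17, 103.21 and 139.87 TPM in foregut and 174.56, 111.96 and 148.89 TPM in hindgut, overlapping with vehicle in both regions (0.03 and -0.02, SE 0.27 each). For sox17a.L the values were 0.12 (adjusted p = 0.927) and -0.02 (adjusted p = 1) with limma. For a1cf.L, 1.51, 0.35 and 1.1 TPM in FG_BIO and 3.84, 5.19 and 3.44 TPM in HG_BIO overlapped with vehicle as well. Of the 33 early endoderm factors 1 was called, pou5f3.1.S, an Oct4-related factor, higher in FG_BIO (1.39), with 2 at an unadjusted p under 0.05 (1.92% of tested rows higher, 4.5% lower), and this call was lost when any 1 of the 6 libraries was left out. In HG_BIO 0 were called by limma and 0 had an unadjusted p under 0.05 (0.0173% of tested rows higher, 0.0104% lower). The cdx2.L level did move in the same foregut libraries, from 8.43 to 90.4 TPM (3.36, adjusted p = 1.76e-08), beside 211 TPM in HG_DMSO.

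In the heat shock experiment all 4 members overlapped between heated and unheated explants in both regions. Of all rows tested, 11.8% were higher and 8.79% lower without overlap in heated foregut, and 12.3% higher and 10.1% lower in heated hindgut. Heated foregut held 70.98 and 124.85 TPM of sox17a.S and 591.38 and 325.95 TPM of darmin.L, at log2 differences of -0.12 (SE 0.34) and 0.11 (SE 0.39) from unheated foregut. Heated hindgut held 130.35 and 171 TPM of sox17a.S and 1288.32 and 844.08 TPM of darmin.L, at -0.25 and 0.21. For a2m.S the heated values were 533.63 and 1097.22 TPM in foregut and 510.44 and 949.98 TPM in hindgut, and the 2 libraries within each of the 4 groups differed more than the groups did. In a1cf.L, 10.08 and 3.52 TPM in HG_HSdkk1 and 4.08 and 2.4 TPM in FG_HSdkk1 gave 0.62 and 0.30 (SE 0.39 each), and the hindgut difference rested on 1 library: without it the value was -0.03. sox17a.L was not called (adjusted p = 1 in both regions, limma with Benjamini-Hochberg adjustment). No early endoderm factor was called, with 0 of 33 at an unadjusted p under 0.05 in foregut and 1 in hindgut, and few rows were called at all (0.0173% higher and 0.00693% lower in foregut, 0.00693% and 0% in hindgut). Blood and endothelium rows summed to 1143.2 to 1400.4 TPM in FG_HSdkk1 against 724.66 to 824.83 TPM in FG_noHS, and to 285.95 to 416.77 TPM in HG_HSdkk1 against 181.36 to 250.9 TPM in HG_noHS.

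In dorsal explants sox17a.S, darmin.L and a2m.S were low, and a1cf.L was listed at 0 in 2 of 3 libraries. Dorsal libraries held 18.72, 22.23 and 18.42 TPM of sox17a.S, 17.58, 48.26 and 39.66 TPM of darmin.L, 163.23, 187.72 and 244.68 TPM of a2m.S and 0, 0.3 and 0 TPM of a1cf.L. For every member all 3 lay below all FG_DMSO and all HG_DMSO libraries, as in 31.3% and 23.4% of the rows tested. The vehicle foregut mean was 6.02 times the dorsal mean for sox17a.S, 3.24 times for darmin.L and 7.39 times for a2m.S. sox17a.L was lower in Dorsal than in FG_DMSO (-2.04, adjusted p = 2.49e-05) and than in HG_DMSO (-2.64, adjusted p = 4.55e-07, limma with Benjamini-Hochberg adjustment). Among the 33 early endoderm factors, 20 were lower and 1 higher than in FG_DMSO (21.4% of tested rows lower, 10.9% higher), and 17 were lower and 0 higher than in HG_DMSO (18.1% lower, 15.6% higher). The median was -1.26 beside -0.23 over all rows against foregut, and -0.93 beside -0.07 against hindgut. The lower rows were led by gata6.S, at 2.44 TPM in Dorsal against 82.3 TPM in FG_DMSO (-4.58, adjusted p = 3.99e-13). The higher row was vegt.S, at 3.14 TPM in Dorsal against 0.653 TPM in FG_DMSO. Summed mesoderm markers were 5967.8 to 6537.3 TPM in Dorsal.

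Set against the summed endoderm markers of the same library, the members differed in how their share varied between groups. As a share of that sum, sox17a.S was 27.8 ± 2.3% in FG_DMSO, 31.5 ± 3.0% in HG_DMSO (SD, n = 3), 27.4 ± 1.8% in FG_endo and 34.5 ± 1.5% in HG_endo (SD, n = 2). In DMH1 and BIO explants its mean share was between 30.06 and 30.9%. The share was lower in FG_noHS, at 22.2 ± 1.4%, in Dorsal, at 16.8 ± 2.7%, in HG_meso, at 5.54 ± 1.97%, and in FG_meso, at 0.536 ± 0.416%, and it did not overlap between FG_endo and HG_endo. The sum contains the sox17b.1 rows, so part of this likeness is between relatives. Of its 14 rows, only 4 in FG_meso and 8 in HG_meso reached 1 TPM in every library, against 13 in Dorsal and 14 in HG_endo. Shares in the mesoderm layers are thus set against few rows and do not measure an amount of endoderm. For darmin.L the share was 26.8 ± 2.5% in FG_DMSO, 91.8 ± 21.4% in HG_DMSO and 152 ± 35% in HG_DMH1, and the libraries of FG_DMSO and HG_DMSO did not overlap. In FG_noHS it was 89.4 ± 23.5%, close to HG_DMSO. HG_DMH1 and HG_DMSO overlapped by this measure, at 111.3 to 174.1% and 70.68 to 113.5%. In FG_DMH1 the share of darmin.L was 29.28 to 34.8%, above every FG_DMSO library (23.96 to 28.55%), although its TPM was lower in same-numbered pairs. The marker sum itself was lower in FG_DMH1 than in FG_DMSO. How many of all rows separate by this measure was not counted. The share of a2m.S was 343 ± 10% in FG_DMSO, 188 ± 85% in HG_DMSO, 159 ± 42% in FG_endo and 112 ± 16% in HG_endo. In FG_DMH1 it was 401.2 to 768.1%, above every FG_DMSO library (332.7 to 353.1%). In FG_endo replicate 2 alone, the shares were 26.16% for sox17a.S, 78.44% for darmin.L and 188.8% for a2m.S, and in replicate 1 they were 28.73%, 155.4% and 128.9%. For a1cf.L it was 0.322 ± 0.200% in FG_DMSO, 0.666 ± 0.237% in HG_DMSO and 1.29 ± 0.13% in HG_DMH1, and the last of these did not overlap with vehicle. In FG_endo a1cf.L was 0 and 0.0254% of the sum, below every foregut explant library.

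**Figure D4:**
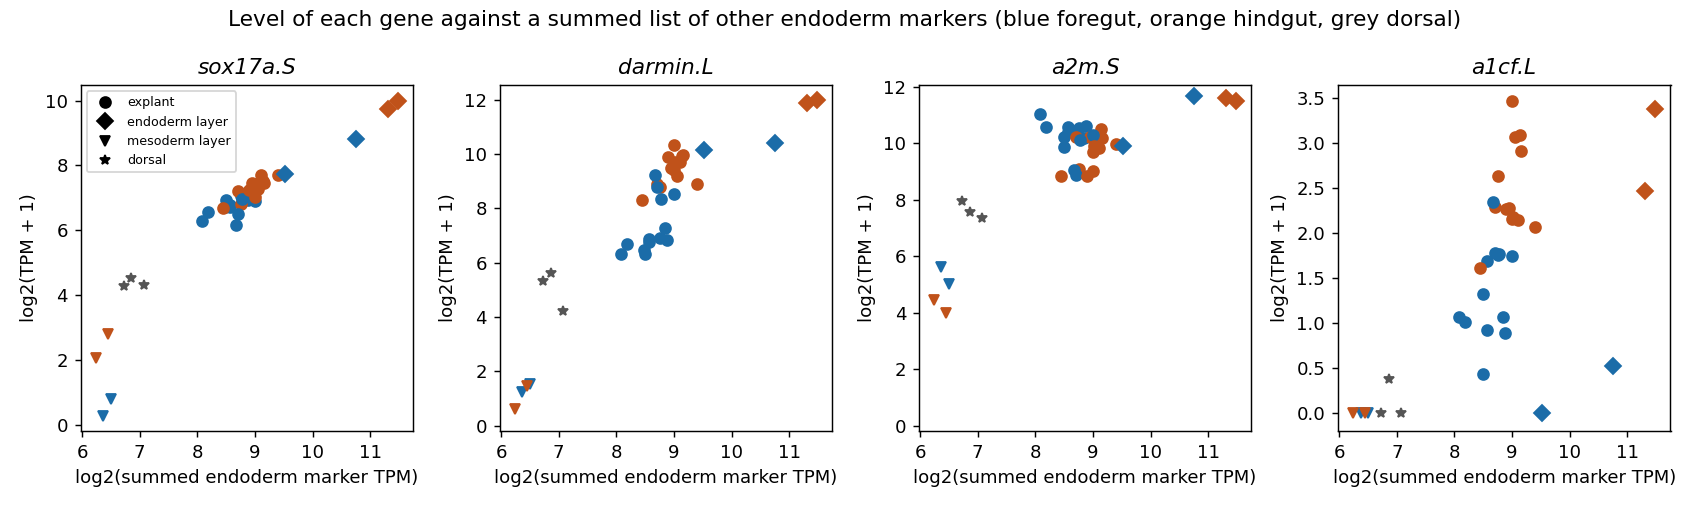
Level of each gene as log2(TPM + 1) (vertical axis) against log2 of the summed TPM of 14 endoderm marker rows (horizontal axis) in 37 libraries. Explants, endoderm layers, mesoderm layers and dorsal tissue have different symbols and regions different colours (blue foregut, orange hindgut, grey dorsal); sox17a.S is highest where the sum is highest and lies low in the mesoderm layers and Dorsal, darmin.L lies higher in hindgut explants and in FG_noHS than in FG_DMSO at like sums, and a1cf.L is near 0 in FG_endo although the sum there is high.

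Across groups the members resembled each other to different degrees. Over the 15 group means of log2(TPM + 1), Pearson's r was 0.94 between sox17a.S and darmin.L, 0.93 between sox17a.S and a2m.S and 0.87 between darmin.L and a2m.S. Without the 4 germ layer groups, r over 11 means was 0.78, 0.70 and 0.20. The likeness of darmin.L to a2m.S was thus carried by the separated layers, while that of darmin.L to a1cf.L was higher without them (0.79 over 15 and 0.96 over 11 means). These values are descriptions, and the points share libraries, embryos and the common scale of TPM.

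By the same measure, among 11396 rows with a gene symbol and a highest group mean of at least 10 TPM, the row most like sox17a.S was dhh.S, which encodes the ligand Desert hedgehog (r = 0.98). It was followed by dhh.L, the dicarboxylate transporter row slc13a3.L, the potassium channel row kcnj16.L and the gap junction row gjb1.L. For darmin.L the first was ckmt1b.S, a mitochondrial creatine kinase (r = 0.99), then palmd.L, adhfe1.S, slc13a3.L and aifm3.L. Most like a2m.S was ppip5k1.S (r = 0.98), then hao1.L, which encodes the peroxisomal enzyme glycolate oxidase, dhh.S, hap1.L and ugt1a1.L, a bilirubin glucuronosyltransferase. For a1cf.L the values were lower, from 0.95 for dhtkd1.L, a mitochondrial dehydrogenase component, to 0.91 for slc7a2-like.L, with iqgap2.S, trim50.S and exoc3l2.S between. slc13a3.L and dhh.S each stood in the first 5 of 2 members. Without the germ layer groups, r to a2m.S ran from 0.78 for hao1.L to 0.91 for ppip5k1.S. Of the named like rows, r was higher without these groups only for adhfe1.S (0.99), trim50.S (0.96) and exoc3l2.S (0.91). Over libraries in place of group means, r to a1cf.L ran from 0.79 for slc7a2-like.L to 0.86 for trim50.S.

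Counts of the remaining lists stand beside a background of 8.5% of all tested rows lower and 18% higher in FG_meso than in FG_endo, and 11.6% lower and 21.6% higher in HG_meso than in HG_endo. Of 27 tested rows of Nodal signalling, 4 were lower and 1 higher in FG_meso than in FG_endo and 5 were lower and 4 higher in HG_meso than in HG_endo (limma, adjusted p under 0.05), with a median of 0.00 in both. Its most abundant row was smad4.1.S, a shared Smad, which varied widely in HG_HSdkk1 (7737 ± 9665 TPM, SD, n = 2). Of 29 tested rows of secreted plasma and gut differentiation proteins, 10 were lower and 1 higher in the foregut comparison and 13 lower and 0 higher in the hindgut comparison, with medians of -0.50 and -1.04, and the most abundant was the complement row c3.L, at 614 TPM in FG_endo and 89.9 TPM in FG_meso. Of 27 rows of regional endoderm factors, 14 and 13 were lower and 0 higher, with medians of -1.06 and -1.18. Its most abundant row, cdx2.S, was 557 TPM in HG_endo and 46.8 TPM in FG_endo (3.59, adjusted p = 2.1e-05; 3.22, adjusted p = 0.00147, without FG_endo replicate 1). Of 27 tested rows related in protein family to the 4 members, 5 were lower and 5 higher in foregut and 10 lower and 4 higher in hindgut, with medians of -0.03 and -0.50. The medians over all rows tested were 0.08 in foregut and 0.11 in hindgut. Among them a2ml1.L, a relative of a2m, was 5.47 TPM in HG_endo against 0.605 TPM in FG_endo (2.01, adjusted p = 0.000386; 2.00, adjusted p = 0.00534, without FG_endo replicate 1). In the foregut comparison without FG_endo replicate 1, the medians were -0.21 for Nodal rows and -0.35 for secreted protein rows. They were -1.45 for regional factors and -0.64 for family rows, beside -0.01 over all rows tested. Without that library the foregut median of family rows was thus no smaller in size than the hindgut median of -0.50. The foregut counts of all lists in this paragraph use both FG_endo libraries, so their contrast with the hindgut counts depends on replicate 1. The family list repeats rows of other lists, among them sox17b.1 and sox7 of the early endoderm factors and c3 of the secreted proteins. Its counts are therefore not separate from theirs.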

How the data were processed

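RNA was taken at stage NF20 and libraries were stranded mRNA libraries, per the labels' protocols. The authors made the deposited TPM values from the reads with FastQC, Trimmomatic and RSEM, per the submitters' processing notes, with versions and genome build not given in the sources used here. TPM keeps no counts, so depth and counting error are unknown, and the precision rests on the 2 or 3 libraries of a group.

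All 37 columns were used, of which 33 were matched to a sample and 4 only to a group. Values were taken as log2(TPM + 1). The 28863 rows (71.7%) that reached 1 TPM in 2 libraries or more entered 1 model of 15 group means in limma 3.58.1 (trend option, R 4.3.3; 22 residual and 4.22 prior degrees of freedom), with Benjamini-Hochberg adjustment over these rows and a threshold of 0.05. The steps were tested on simulated data. Log2 differences understate changes of low rows. The SD given after ± is over the libraries of a group, and each SE belongs to a log2 difference. Whether replicates came from separate clutches is not given, so p-values measure only a spread between these libraries. That spread is taken within groups and pooled over all 15 groups, and the main fit does not pair libraries by number. Python 3.11.15 with matplotlib 3.10.9 made the figures.

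The 4 rows, the gene lists and the tests were chosen with earlier results of these data known. Named genes are the 4 rows, their homeologs, the 5 rows most like each by correlation, up to 6 list members per comparison with the smallest p among those called, and the most abundant row of each list. Rows with the symbols of the 4 members were left out of the search for like rows. Other rows named in the text (gata4.L and foxa2.L in the explants, the sox7 and sox17b.1 rows, gata6.S in the endoderm layers, vegt.S, pou5f3.1.S, cndp1.L, phc1.S, a2ml1.L) were chosen after their values were seen. Neighbouring genes and the name endodermin come from RefSeq (Xenopus_laevis_v10.1), used for names and neighbours only.

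Libraries of the inhibitor experiment with the same number deviated together from their group means (correlations of 0.253 to 0.557 in 45 pairs), so the numbers were taken to pair them. The labels do not say what a number shares. The layer and foregut heat shock groups have 2 libraries each, for which pairing was not established. The replicate block took out their numbers too, so its counts there rest on a pairing that is not established. Alternatives were the pseudocount, the filter, median-of-ratios scaling, summed homeologs, the replicate block, a fit of the compared groups alone, and libraries left out.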

Additional observations from a re-analysis of the deposited data

Results flagged for a closer look

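The DMH1 difference of darmin.L was 1.208 larger in hindgut than in foregut on the log2 scale (0.99 against -0.22). It was singled out because DMH1 libraries lay above their same-numbered vehicle libraries in 3 of 3 hindgut pairs and below them in 3 of 3 foregut pairs. The difference was not tested, since darmin.L was picked with these values known. How many of all rows show this pattern of pairs was not counted. The foregut direction depended on the measure. As a share of the summed endoderm markers, darmin.L was higher in FG_DMH1 (29.28 to 34.8%) than in FG_DMSO (23.96 to 28.55%). By that share HG_DMH1 and HG_DMSO overlapped (111.3 to 174.1% and 70.68 to 113.5%).

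The layer difference of gata6.S, mesoderm minus endoderm, was -2.27 in hindgut (91.3 TPM in endoderm, 18.2 TPM in mesoderm) and -0.65 in foregut (46.8 and 25.9 TPM). The test of the difference between the regions gave -1.617 (adjusted p = 0.0278, limma interaction with Benjamini-Hochberg adjustment). Without FG_endo replicate 1 the value was -0.87 (adjusted p = 0.208). No early endoderm factor was called in this interaction without that library, nor without any 1 of the 4 mesoderm libraries, while 7 were called without FG_endo replicate 2 and 2 without HG_endo replicate 2.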

How the results depend on the processing

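The totals here exclude fits with 1 library left out at a time but include the fit without the number 1 inhibitor libraries. Among these alternatives, 421 member values moved by less than the spread of the libraries and 31 by more. Of the counts of called early endoderm factors, 122 stayed within 1.5 times the main count and 26 did not. The filters, the fit of the compared groups alone and the replicate block leave a member's log2 difference unchanged. Part of the 421 values therefore could not move. The members were not tested, so their values below show size only, and for a1cf.L, listed at 0 in the mesoderm layers, they depend on the pseudocount. Median-of-ratios scaling shifted the log2 difference of each row. The median of these row shifts over all tested rows was 0.16 in HG_DMSO minus FG_DMSO and 0.10 in HG_noHS minus FG_noHS. It was -0.15 in HG_meso minus HG_endo, -0.13 in HG_meso minus FG_meso and 0.21 in Dorsal minus FG_DMSO. In the BIO difference between regions it was -0.12.

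With a pseudocount of 0.1, a1cf.L was 0.58 in HG_noHS minus FG_noHS, -1.22 in FG_meso minus FG_endo, -6.05 in HG_meso minus HG_endo, 4.83 in HG_endo minus FG_endo, -3.06 in Dorsal minus FG_DMSO and -4.27 in Dorsal minus HG_DMSO. FG_meso minus FG_endo was then -9.26 for sox17a.S and -9.49 for darmin.L, HG_meso minus HG_endo -11.81 for darmin.L and HG_meso minus FG_meso 3.14 for sox17a.S. Counts of called factors were 1 in HG_DMH1, 0 in FG_BIO, 0 in HG_noHS minus FG_noHS and 3 in the layer interaction. With a pseudocount of 5, a1cf.L was 0.34 in HG_DMSO minus FG_DMSO, 0.60 in HG_DMH1, 0.22 in HG_noHS minus FG_noHS, -1.23 in HG_meso minus HG_endo, 1.16 in HG_endo minus FG_endo, -0.31 in Dorsal minus FG_DMSO and -0.65 in Dorsal minus HG_DMSO. sox17a.S was -5.84 in FG_meso minus FG_endo, -6.63 in HG_meso minus HG_endo, 0.79 in HG_meso minus FG_meso and -2.32 in Dorsal minus FG_DMSO. darmin.L was -7.55 and -9.31 in the layers and a2m.S -7.06 in the hindgut layers, and 2 factors were called in FG_BIO and 0 in HG_meso minus FG_meso.

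Median-of-ratios scaling gave 0.56 for a1cf.L in HG_noHS minus FG_noHS, -9.16 for darmin.L in FG_meso minus FG_endo, -2.27 for sox17a.S and -2.64 for a2m.S in Dorsal minus FG_DMSO, and 4 factors in the layer interaction. With homeologs summed, so that fewer rows were tested, 0 factors were called in FG_BIO, 10 in FG_meso minus FG_endo, 13 in HG_meso minus HG_endo, 7 in HG_endo minus FG_endo, 10 in Dorsal minus FG_DMSO, 9 in Dorsal minus HG_DMSO and 2 in the layer interaction. Summed sox17a was -8.54 in FG_meso minus FG_endo, 2.42 in HG_meso minus FG_meso and -2.32 in Dorsal minus FG_DMSO. Without the filter, 0 factors were called in FG_BIO. Without the number 1 inhibitor libraries, 0 were called in FG_BIO and 3 in HG_DMSO minus FG_DMSO. With only the groups compared, and so fewer samples, 7 were called in FG_meso minus FG_endo and 0 in HG_DMSO minus FG_DMSO, HG_endo minus FG_endo, HG_meso minus FG_meso, HG_noHS minus FG_noHS and the layer interaction.

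With the replicate block, 10 factors were called in HG_DMSO minus FG_DMSO, 1 in HG_DMH1 and 4 in the layer interaction. It also gave 14 in HG_endo minus FG_endo (11 without it), 27 in HG_meso minus HG_endo (26) and 4 in HG_meso minus FG_meso (3), and the counts of the other comparisons with a block were equal. With 1 library left out at a time, called factors numbered 0 in FG_BIO, 0 to 1 in HG_DMH1, 3 to 6 in HG_DMSO minus FG_DMSO, 0 in HG_noHS minus FG_noHS, 2 to 16 in HG_endo minus FG_endo and 0 to 7 in the layer interaction. Small member differences changed sign with 1 library left out, among them sox17a.S in HG_DMH1 (0.22, and -0.03 without HG_DMSO replicate 2), while darmin.L kept its sign in HG_DMSO minus FG_DMSO (1.76 to 2.05) and in HG_DMH1 (0.80 to 1.23). For a1cf.L the range was -0.53 to 0.00 in FG_meso minus FG_endo and -3.37 to -2.46 in HG_meso minus HG_endo. Where a value or count moved, apart from the summed homeologs and the smaller fit, the cause was not tested.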
